A study of Mus musculus with 12 samples.

Results

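The cytochrome P450 genes of families 1 to 4 were examined in the left lungs of 12 mice on Affymetrix MoGene 1.0ST arrays, 1 array a mouse, 5 days after PBS or bleomycin. Bleomycin is a DNA-damaging drug that injures the lung and leads to fibrosis, and Fra-1, encoded by Fosl1, is a subunit of the AP-1 transcription factor. The 4 groups, with 3 mice in each, were bleomycin-treated Fra-1-/- mice (KOT), PBS-treated Fra-1-/- mice (KOC), bleomycin-treated Fra-1+/+ mice (WTT) and PBS-treated Fra-1+/+ mice (WTC). All were C57/129S mice labelled female and 2 months old, and each received 30 µL of PBS into the trachea, with 0.075 U of bleomycin in KOT and WTT. Every group carried the floxed Fra-1 allele. The Fra-1-/- mice also carried Meox2-Cre, which is active in the embryo but not in extra-embryonic tissue, so Cre itself and the loss of Fra-1 cannot be told apart.

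Genes were taken by name (Cyp, a digit from 1 to 4, a letter and a number) from transcript clusters annotated to a single gene, and were selected on their level, which had to average at least 6 on the log2 scale in at least 1 group. Of 65 P450 genes with such a cluster, 26 met this level: 2 of 3 in family 1, 17 of 43 in family 2, 1 of 6 in family 3 and 6 of 13 in family 4. Another 7 P450 clusters carry several symbols, among them the one shared by Cyp2a4 and Cyp2a5, and were not used. Just inside the limit lay Cyp2d26, with a highest group mean of 6.04 in WTT, and Cyp2d10 (6.25 in WTT). Just outside lay Cyp2c23 (5.98 in KOC) and Cyp2t4 (5.79 in WTC). The limit was reached in all 4 groups by 23 of the 26 genes. Cyp1a1, Cyp2d10 and Cyp2d26 reached it in fewer groups, so part of the difference between groups in Cyp1a1 was set by the selection. Cyp1a2, the liver partner of Cyp1a1, was not among the 26 (highest group mean 5.20). Levels of different genes come from different probes and are not set against each other.

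Cytochrome P450 enzymes are heme proteins of the endoplasmic reticulum that insert oxygen into their substrates with electrons from P450 oxidoreductase and, for some reactions, cytochrome b5. Families 1 to 3 mostly oxidise drugs, smoke constituents and other foreign compounds, and family 4 mostly oxidises fatty acids and eicosanoids such as leukotriene B4. In the mouse lung they are best known from the club cells of the small airways, where Cyp2f2 turns naphthalene into a toxic epoxide. They also occur in alveolar type 2 cells, endothelium and leukocytes.

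The arrays were alike in scale, with medians between 7.14 and 7.22. All 12 arrays showed Y-linked genes such as Uty (7.73 to 8.21) and little Xist (4.47 to 4.94), against the female sex in the labels. Fosl1 measured 7.33, 7.32 and 7.28 in KOT, 6.68, 6.26 and 6.56 in KOC, 7.81, 8.19 and 8.32 in WTT, and 6.37, 6.76 and 6.86 in WTC. All 3 KOT values were under the lowest WTT value, as the genotype labels run, while the KOC and WTC mice overlapped. Which part of the gene these probes cover is not given in the sources used here, so the labels of the PBS groups are not checked by Fosl1.

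As examples, 250 bases before the start of 5 genes are printed from RefSeq (GRCm38.p6). The part of these sequences in the changes of the genes was not tested. Cyp2f2 is shown as a club cell P450 that fell, and Cyp1a1 and Cyp1b1 as targets of one receptor. Cyp4f15 and Cyp4f16 are genes of one cluster of which the first fell and the second rose. The 5 windows lie at chr7:27119705-27119954 (Cyp2f2, plus strand), chr9:57697363-57697612 (Cyp1a1, plus), chr17:79715062-79715311 (Cyp1b1, minus), chr17:32685409-32685658 (Cyp4f15, plus) and chr17:32536307-32536556 (Cyp4f16, plus). Capitals mark GCGTG, the core of the element bound by the aryl hydrocarbon receptor, and TGAGTCA, the element bound by AP-1, each on either strand (CACGC and TGACTCA when read on the other).
Cyp2f2: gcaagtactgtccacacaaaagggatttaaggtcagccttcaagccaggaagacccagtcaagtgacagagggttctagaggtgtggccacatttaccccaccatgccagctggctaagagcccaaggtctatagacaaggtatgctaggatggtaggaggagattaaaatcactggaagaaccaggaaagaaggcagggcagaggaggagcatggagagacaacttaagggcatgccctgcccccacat
Cyp1a1: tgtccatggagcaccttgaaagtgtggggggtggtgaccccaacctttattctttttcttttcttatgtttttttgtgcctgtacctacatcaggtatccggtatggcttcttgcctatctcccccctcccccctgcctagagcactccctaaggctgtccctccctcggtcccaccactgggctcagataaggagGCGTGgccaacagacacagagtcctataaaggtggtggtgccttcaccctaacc
Cyp1b1: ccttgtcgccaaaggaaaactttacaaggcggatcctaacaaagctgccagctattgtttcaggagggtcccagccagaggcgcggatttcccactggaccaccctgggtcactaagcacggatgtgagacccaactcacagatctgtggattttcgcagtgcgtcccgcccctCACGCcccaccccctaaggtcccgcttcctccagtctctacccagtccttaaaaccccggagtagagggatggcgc
Cyp4f15: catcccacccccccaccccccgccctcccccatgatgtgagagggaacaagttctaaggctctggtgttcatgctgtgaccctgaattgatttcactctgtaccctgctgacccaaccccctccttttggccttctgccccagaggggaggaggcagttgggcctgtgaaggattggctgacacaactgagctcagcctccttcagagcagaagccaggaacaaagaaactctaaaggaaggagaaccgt
Cyp4f16: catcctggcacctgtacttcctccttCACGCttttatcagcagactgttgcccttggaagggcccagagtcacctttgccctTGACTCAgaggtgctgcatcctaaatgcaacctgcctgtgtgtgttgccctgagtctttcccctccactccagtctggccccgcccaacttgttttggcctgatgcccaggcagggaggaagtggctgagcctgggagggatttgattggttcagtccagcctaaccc

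A window was found for 24 of the 26 genes. GCGTG occurred in 7 of them (Cyp1a1, Cyp1b1, Cyp2b10, Cyp2j9, Cyp2w1, Cyp4f16 and Cyp4f39) and in 28.2% of all 32851 windows of this length. TGAGTCA occurred in 2 (Cyp3a13 and Cyp4f16) and in 4.46% of all windows. TGACGTCA, the cyclic AMP response element, which contains neither motif, was in 0 of the 24 and in 1.55% of all windows. In Cyp1a1 the single GCGTG began 54 bases before the start, and in Cyp1b1 it began 76 bases before it on the other strand. The printed windows of Cyp2f2 and Cyp4f15 held none of these letters.

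The first question was how the lung P450 genes responded to bleomycin in each genotype. In Fra-1-/- mice (KOT against KOC), 7 of the 26 fell and 1 rose. In Fra-1+/+ mice (WTT against WTC), 10 fell and 2 rose. Cyp2f2, Cyp2b10, Cyp4b1, Cyp4f15, Cyp2j9 and Cyp2d22 fell in both genotypes and Cyp4f16 rose in both. Cyp1a1 is also counted among the falls, but it met the level only through its PBS groups. Over the 23 genes that met the level in all 4 groups, 6 fell and 1 rose in Fra-1-/- mice, and 9 fell and 2 rose in Fra-1+/+ mice. A gene was counted where limma's test over all 23410 clusters with a gene symbol gave an adjusted p under 0.05. In Fra-1-/- mice 7.98% of all clusters fell and 7.42% rose by this test, and in Fra-1+/+ mice 11.3% fell and 10.2% rose. The median log2 fold change of the 26 genes was -0.15 in Fra-1-/- and -0.18 in Fra-1+/+ mice, against 0.02 over all clusters in either. By family, 1 of 2 genes of family 1 (Cyp1a1), 4 of 17 of family 2 and 2 of 6 of family 4 fell in Fra-1-/- mice. The numbers that fell in Fra-1+/+ mice were 1, 6 and 3 in these families, and the single gene of family 3 was called in neither. The local-pooled-error test of the study's methods, on medians, called 8 of the 26 in Fra-1-/- (8.08% of all clusters) and 10 in Fra-1+/+ mice (7.92%). Both counts include Cyp1a1, but the genes were not the same as limma's. At its threshold of 0.01 the test on medians called 6 lower and 2 higher (Cyp1b1 and Cyp4f18) in KOT against KOC. It left out Cyp4f15 (adjusted p = 0.0265) and Cyp4f16 (0.194) there. For WTT against WTC it called 8 lower and 2 higher (again Cyp1b1 and Cyp4f18). Cyp2d22 (0.0205), Cyp4f13 (0.665) and Cyp4f16 (0.216) were left out. Without KOT 81 limma's Fra-1-/- count was 5, and with array weights it was 13. Because the lung was measured whole, fewer cells of a type and less RNA per cell cannot be told apart.

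**Figure D1:**
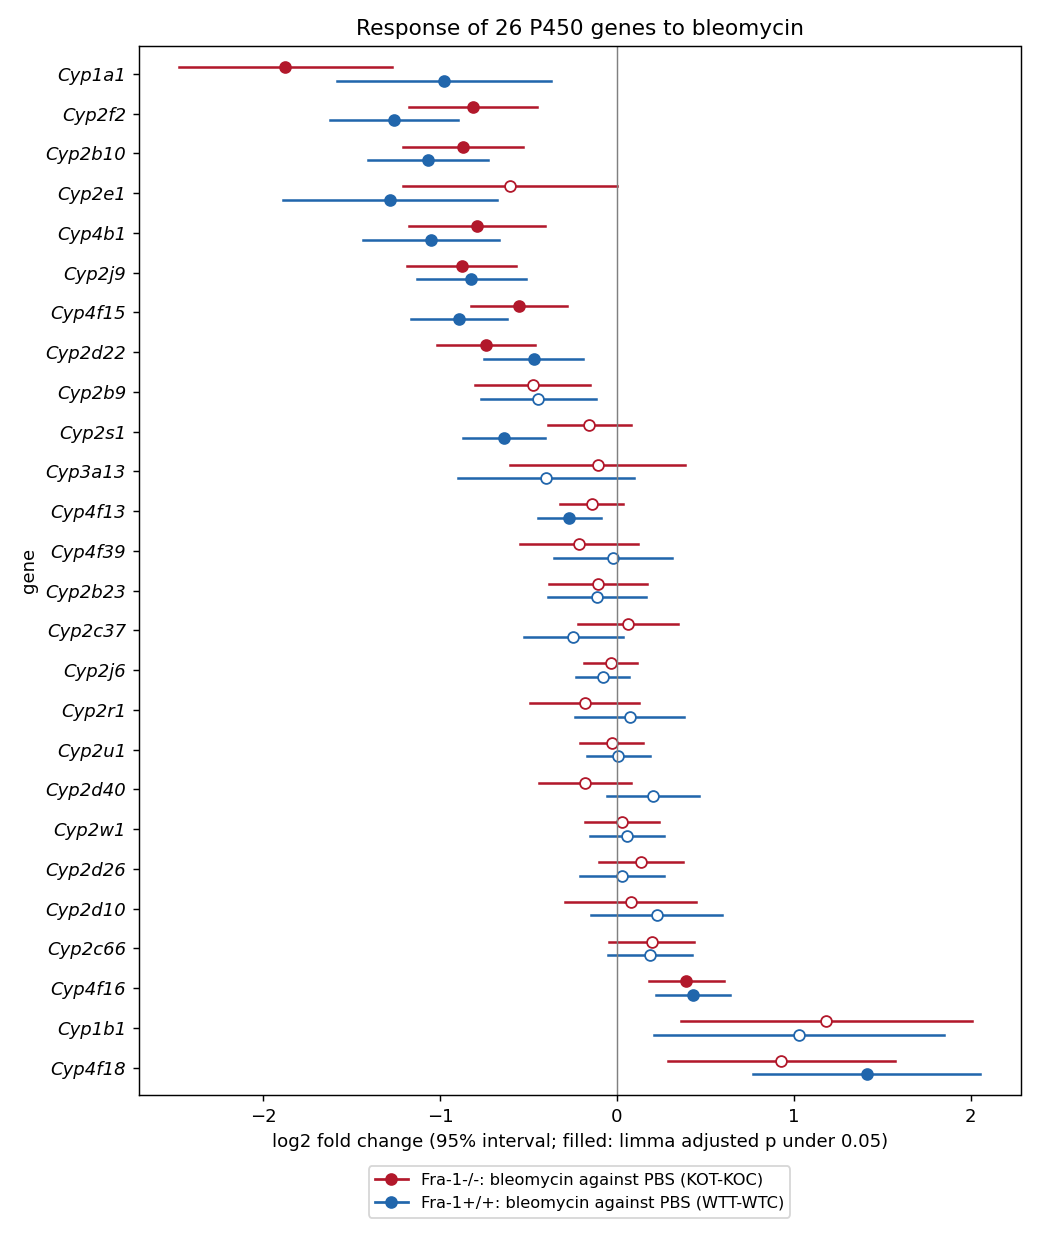
Log2 fold change of the 26 P450 genes between bleomycin and PBS (x axis) with its 95% confidence interval, for Fra-1-/- mice (red, KOT minus KOC) above Fra-1+/+ mice (blue, WTT minus WTC), n = 3 mice a group; filled points passed limma's test. Cyp1a1 in Fra-1-/- mice, which was selected through its PBS groups and is shown as a description whatever its fill, lies farthest left at -1.87, and Cyp4f18 in Fra-1+/+ mice farthest right at 1.41.

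Of the P450 genes best known from airway epithelium, Cyp2f2, Cyp2b10 and Cyp4b1 fell in both genotypes and Cyp2s1 fell in Fra-1+/+ mice. Cyp2f2, the naphthalene-activating enzyme of club cells, measured 12.99, 13.33 and 12.77 in KOT and 13.86, 13.84 and 13.83 in KOC. It measured 13.02, 12.49 and 12.36 in WTT and 13.77, 13.91 and 13.96 in WTC. Every bleomycin-treated mouse lay below every PBS-treated mouse of its genotype. The level after bleomycin was 0.57 of that with PBS in Fra-1-/- (log2 fold change -0.82, SE 0.17, adjusted p = 0.0073) and 0.42 of it in Fra-1+/+ mice (-1.26, SE 0.17, adjusted p = 0.00065). Cyp2b10, a phenobarbital-inducible enzyme controlled in mouse liver by the receptor CAR, measured 11.29, 11.98 and 11.58 in KOT, 12.50, 12.35 and 12.60 in KOC, 11.31, 11.39 and 11.60 in WTT, and 12.35, 12.65 and 12.51 in WTC. Bleomycin-treated mice were again all below PBS-treated ones. It fell by 0.87 in Fra-1-/- mice (SE 0.16, adjusted p = 0.0039) and fell by 1.07 in Fra-1+/+ mice (SE 0.16, adjusted p = 0.00101).

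Cyp4b1, a lung enzyme that hydroxylates fatty acids and activates furan toxins, measured 11.29, 11.73 and 11.33 in KOT, 12.27, 12.31 and 12.15 in KOC, 11.46, 10.88 and 11.51 in WTT, and 12.15, 12.59 and 12.27 in WTC. No bleomycin-treated mouse reached a PBS-treated one. Cyp4b1 fell in Fra-1-/- mice by 0.79 (SE 0.18, adjusted p = 0.011), a call that was lost without KOT 72 (0.0529) or KOT 81 (0.0504). In Fra-1+/+ mice it fell by 1.05 (SE 0.18, adjusted p = 0.0020). Cyp2s1, found in airway and skin epithelium, measured 10.33, 10.37 and 10.25 in KOT, 10.60, 10.44 and 10.38 in KOC, 10.14, 9.97 and 9.91 in WTT, and 10.42, 10.69 and 10.83 in WTC. The Fra-1-/- difference was -0.16 (adjusted p = 0.38), with no overlap, and in Fra-1+/+ mice Cyp2s1 fell by 0.64 (SE 0.11, adjusted p = 0.0020).

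Markers of lung cell types were read beside these genes. Of all clusters, 7.98% fell in Fra-1-/- and 11.3% in Fra-1+/+ mice, and 7.42% and 10.2% rose. Of 9 club and secretory cell markers, 2 fell in Fra-1-/- mice (Chad, -1.77, and Pon1, -1.29) and 6 fell in Fra-1+/+ mice (among them Chad, -2.84, Scgb3a2, -1.29, and Pon1, -1.95). Bpifa1, a secreted airway protein of the same list, averaged 12.16 in KOT and 11.17 in KOC (0.98, adjusted p = 0.19) and differed by -0.38 between WTT and WTC (adjusted p = 0.63). Their summed level lay between 14.83 and 14.87 in KOT, 14.84 and 15.27 in KOC, 14.27 and 14.56 in WTT, and 14.81 and 15.29 in WTC. Scgb1a1, the main club cell secretoglobin, measured between 13.65 and 13.70 in KOT, 13.78 and 13.82 in KOC, 13.62 and 13.73 in WTT, and 13.73 and 13.93 in WTC and passed the test in neither genotype. Of 10 ciliated cell markers 2 fell in Fra-1-/- and 9 in Fra-1+/+ mice. Of 9 alveolar type 2 markers 5 and 6 fell, in the same order of genotypes, and of 10 endothelial markers 8 fell in each. Of 7 alveolar type 1 markers 5 fell in each, with medians of -0.80 in Fra-1-/- and -0.77 in Fra-1+/+ mice. In each of these lists limma called 0 genes in KOT against WTT (0.0427% of all clusters higher, 0% lower). It also called 0 in the difference between the responses of the genotypes (0% of all clusters). The counts of the genotypes are thus not shown to differ. The part of these cell types in the fall of the P450 genes was not tested.

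**Figure D2:**
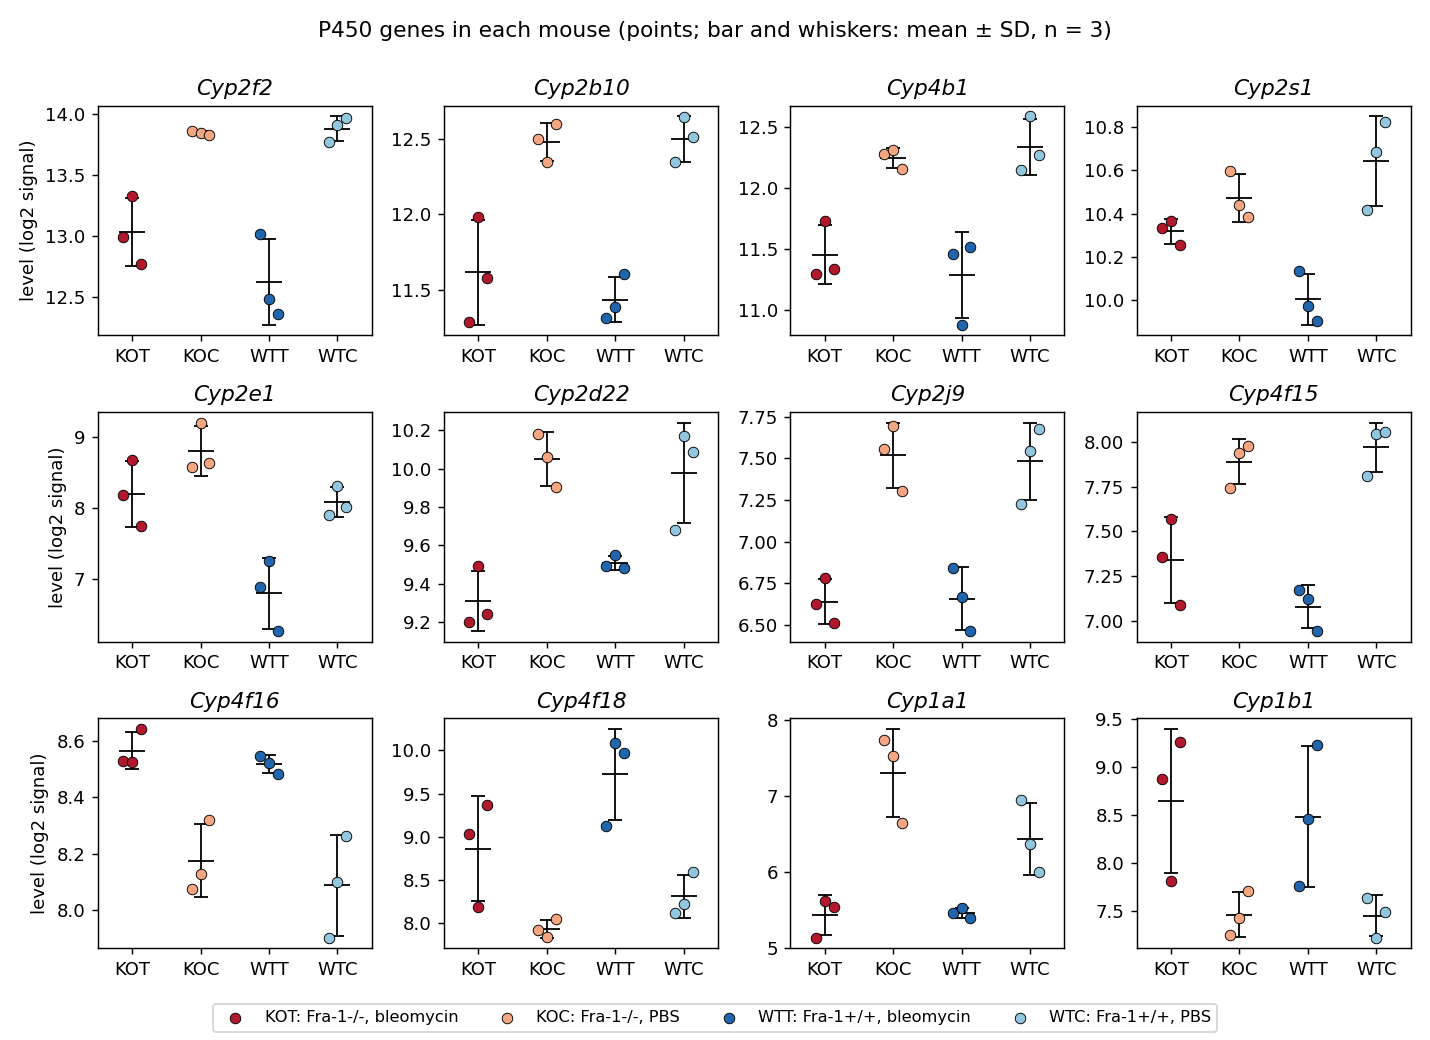
Log2 signal (y axis) of 12 P450 genes in each mouse, by group from KOT to WTC; points are mice, the bar and whiskers the mean and SD of 3 mice. The KOT and WTT points of Cyp2f2, at most 13.33 and 13.02, lie below all KOC and WTC points, and those of Cyp1b1 spread from 7.77 to 9.26.

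Cyp2e1, which oxidises ethanol and small solvents, measured 8.17, 8.68 and 7.74 in KOT, 8.57, 9.20 and 8.63 in KOC, 6.88, 7.25 and 6.26 in WTT, and 7.90, 8.31 and 8.01 in WTC. The WTT mice lay below all WTC mice, while KOT 80 lay above KOC 53 and KOC 67. It fell to 0.41 of the PBS level in Fra-1+/+ mice (-1.28, SE 0.28, adjusted p = 0.0072), and the Fra-1-/- difference of -0.60 (SE 0.28) did not pass (adjusted p = 0.17). With array weights it was -0.70 and passed (adjusted p = 0.0365), and with 1 array left out it lay between -0.38 (without KOT 81) and -0.84 (without KOT 80) and did not pass. It is also expressed in fat and liver. Summed adipocyte markers lay between 9.38 and 9.99 in KOT, 9.91 and 10.76 in KOC, 8.92 and 9.51 in WTT, and 9.70 and 10.14 in WTC, and 1 of 5 measured, the lipid droplet gene Cidec, fell in each genotype (-0.88 in Fra-1-/-, -1.21 in Fra-1+/+ mice). Of all clusters 7.98% fell in Fra-1-/- and 11.3% in Fra-1+/+ mice. Of 7 hepatocyte markers limma called 0 in either genotype, 0 passed at an unadjusted p under 0.05 and the test on medians called 0. Their summed level lay between 8.95 and 9.59 over all mice. The share of all clusters at that unadjusted threshold was not computed for the bleomycin responses. The part of fat tissue in the Cyp2e1 values was not tested.

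Cyp2d22, counted as the mouse relative of the human drug-metabolising CYP2D6, measured 9.20, 9.49 and 9.24 in KOT, 10.18, 10.06 and 9.91 in KOC, 9.49, 9.55 and 9.48 in WTT, and 9.68, 10.17 and 10.09 in WTC. The groups did not overlap in either genotype. It fell by 0.74 in Fra-1-/- mice (SE 0.13, adjusted p = 0.0032) and fell by 0.47 in Fra-1+/+ mice (SE 0.13, adjusted p = 0.021), where the call was lost without WTC 157 (0.0884), WTC 158 (0.0775) or WTT 164 (0.0626). Cyp2j9, of a subfamily that makes epoxides of arachidonic acid, measured 6.63, 6.78 and 6.51 in KOT, 7.56, 7.69 and 7.31 in KOC, 6.84, 6.67 and 6.46 in WTT, and 7.23, 7.55 and 7.67 in WTC. All bleomycin-treated mice were below all PBS-treated mice. It fell by 0.88 in Fra-1-/- mice (SE 0.14, adjusted p = 0.0024) and fell by 0.82 in Fra-1+/+ mice (SE 0.14, adjusted p = 0.0022). Its neighbour in the RefSeq gene order, Cyp2j6, stayed within 7.71 and 8.004 in every mouse and was called in neither.

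The Cyp4f genes, ω-hydroxylases of fatty acids and leukotrienes, went both ways. Cyp4f15 measured 7.36, 7.57 and 7.09 in KOT, 7.75, 7.94 and 7.98 in KOC, 7.17, 7.12 and 6.94 in WTT, and 7.81, 8.05 and 8.06 in WTC. In Fra-1-/- mice it fell by 0.55 (SE 0.12, adjusted p = 0.012), or by 0.43 without KOT 81 (adjusted p = 0.0515). In Fra-1+/+ mice it fell by 0.89 (SE 0.12, adjusted p = 0.00081), again without overlap. Cyp4f16, of the same run of Cyp4f genes, measured 8.53, 8.52 and 8.64 in KOT, 8.08, 8.13 and 8.32 in KOC, 8.55, 8.52 and 8.48 in WTT, and 7.90, 8.10 and 8.26 in WTC. It rose in every bleomycin-treated mouse relative to all PBS-treated mice of its genotype, 1.31-fold in Fra-1-/- (0.39, SE 0.10, adjusted p = 0.018) and 1.35-fold in Fra-1+/+ mice (0.43, SE 0.10, adjusted p = 0.0088). The Fra-1-/- call was lost without KOC 53, KOC 55, KOT 72 or KOT 81 (adjusted p 0.0516 to 0.0799), and the test on medians called Cyp4f16 in neither genotype. The window before Cyp4f16 held both motifs and that before Cyp4f15 neither. The part of these motifs in the changes was not tested.

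Cyp4f18, which inactivates leukotriene B4 in mouse neutrophils, measured 9.03, 8.19 and 9.37 in KOT, 7.91, 7.84 and 8.04 in KOC, 9.12, 10.08 and 9.97 in WTT, and 8.11, 8.23 and 8.59 in WTC. It rose 2.66-fold in Fra-1+/+ mice (1.41, SE 0.29, adjusted p = 0.0061). In Fra-1-/- mice all KOT values lay above the KOC values, KOT 80 least, and the difference of 0.93 (SE 0.29) missed the threshold (adjusted p = 0.0535). Without KOT 80 it was 1.27 (adjusted p = 0.0064), without KOT 81 it was 0.67 (adjusted p = 0.206), without WTT 160 its adjusted p was 0.0268, and the test on medians called it. Summed neutrophil markers lay between 11.12 and 12.70 in KOT, 11.46 and 11.85 in KOC, 11.77 and 14.12 in WTT, and 11.52 and 11.81 in WTC. Of 8 markers 1, the neutrophil collagenase Mmp8, rose in each genotype, with 9.77, 7.995 and 9.92 in KOT, 7.35, 7.25 and 7.27 in KOC, 9.02, 10.27 and 10.52 in WTT, and 7.17, 6.90 and 7.15 in WTC. Of all clusters 7.42% rose in Fra-1-/- and 10.2% in Fra-1+/+ mice. KOT 80 and WTT 160 were the lowest of their groups in both Cyp4f18 and Mmp8. They were also the lowest of their groups in Cyp1b1 and the highest in Cyp2f2, Cyp2j9 and Cyp4f15. The match was thus not particular to Cyp4f18 and Mmp8. The part of neutrophils in the Cyp4f18 values was not tested. Cyp4f13, an enzyme of the same subfamily, fell in Fra-1+/+ mice by 0.27 (SE 0.08, adjusted p = 0.035), with 8.98, 9.13 and 9.16 in WTT and 9.28, 9.36 and 9.43 in WTC. Its values of 9.10, 9.18 and 9.25 in KOT overlapped 9.31, 9.43 and 9.23 in KOC (adjusted p = 0.28). The Fra-1+/+ call was lost without any 1 of WTC 157, WTC 158, WTT 160, WTT 161, WTT 164 or KOC 53 (adjusted p 0.0505 to 0.121).

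Both genes of family 1 are textbook targets of the aryl hydrocarbon receptor. Their differences had opposite signs. That of Cyp1a1 was set in part by its selection, and that of Cyp1b1 passed limma's test in neither genotype in the main setting. Cyp1a1, which oxidises polycyclic aromatic hydrocarbons, measured 5.13, 5.62 and 5.54 in KOT, 7.74, 7.52 and 6.65 in KOC, 5.45, 5.52 and 5.40 in WTT, and 6.94, 6.36 and 5.999 in WTC. Every bleomycin-treated mouse, at 5.62 or less, was below every PBS-treated mouse. The difference was -1.87 in Fra-1-/- and -0.98 in Fra-1+/+ mice. Since Cyp1a1 was selected through its PBS groups, and both bleomycin groups averaged under the level of 6 where background could not be judged, these values are a description with no test. Cyp1b1, found mainly in mesenchymal cells, measured 8.87, 7.81 and 9.26 in KOT, 7.25, 7.43 and 7.72 in KOC, 7.77, 8.46 and 9.23 in WTT, and 7.64, 7.23 and 7.496 in WTC. The bleomycin-treated mice lay above the PBS-treated ones and spread widely. The differences of 1.18 in Fra-1-/- (SE 0.38, adjusted p = 0.0546) and 1.03 in Fra-1+/+ mice (SE 0.38, adjusted p = 0.074) did not pass, while the test on medians called both (adjusted p = 1.25e-12 and 0.000148). That test takes its variance from clusters of like level and leaves out the spread of Cyp1b1 itself (SD 0.75 in KOT and 0.73 in WTT). Its p-values therefore do not measure how Cyp1b1 varied between mice. By limma without KOT 80 the differences were 1.60 (adjusted p = 0.0079) and 1.03 (adjusted p = 0.0303), and without WTT 160 they were 1.18 (adjusted p = 0.0319) and 1.39 (adjusted p = 0.0200). Without WTT 164 the Fra-1-/- difference passed (adjusted p = 0.0305) while the Fra-1+/+ difference shrank to 0.66 (adjusted p = 0.253), and without KOT 81 the Fra-1-/- difference was 0.88 (adjusted p = 0.207). Summed fibroblast markers lay between 13.79 and 13.998 in KOT, 13.53 and 13.77 in KOC, 13.84 and 14.10 in WTT, and 13.49 and 13.57 in WTC, and of 8 measured 3 collagen genes rose and Tcf21 fell in each genotype. Their part in the Cyp1b1 values was not tested. Of 6 other genes of the receptor's pathway measured, among them Ahr, Ahrr and Tiparp, 0 were called by limma or by the test on medians in either genotype. At an unadjusted p under 0.05 there were 2 in Fra-1-/- mice (Ahr and Arnt2) and 0 in Fra-1+/+ mice. The share of all clusters at that threshold was not computed for the bleomycin responses, so these counts have no background. Ahr differed by -0.30 in Fra-1-/- and -0.24 in Fra-1+/+ mice.

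The genes left were called in no comparison by limma's test over all clusters, though Cyp2b9 lay near the threshold. Cyp3a13, the only gene of the drug-metabolising family 3 at this level, measured 5.96, 6.41 and 5.9999 in KOT, 5.94, 5.91 and 6.86 in KOC, 6.19, 6.11 and 6.36 in WTT, and 6.45, 6.87 and 6.55 in WTC. The groups overlapped in Fra-1-/- mice (-0.11, adjusted p = 0.81) and not in Fra-1+/+ mice (-0.40, SE 0.23, adjusted p = 0.25), and without KOC 67 the Fra-1-/- difference was 0.20. For the other 12 genes group means lay between 5.83 and 7.95. Log2 fold changes lay between -0.48 and 0.20 in KOT against KOC and between -0.44 and 0.23 in WTT against WTC. The lowest in each was that of Cyp2b9, of the same subfamily as Cyp2b10, with an adjusted p of 0.0503 in Fra-1-/- and 0.0528 in Fra-1+/+ mice. Cyp2b9 passed without WTC 76, at 0.0051 in Fra-1-/- and 0.0020 in Fra-1+/+ mice, and in Fra-1-/- mice also without WTC 157 (0.0342). It also passed in 6 of 9 alternative settings in Fra-1-/- and 4 of 9 in Fra-1+/+ mice, with array weights, cyclic loess, trended moderation and a filter on dim clusters in both. Cyp2u1, Cyp2r1, a vitamin D hydroxylase, and Cyp2w1 were among the genes called in neither.

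**Figure D3:**
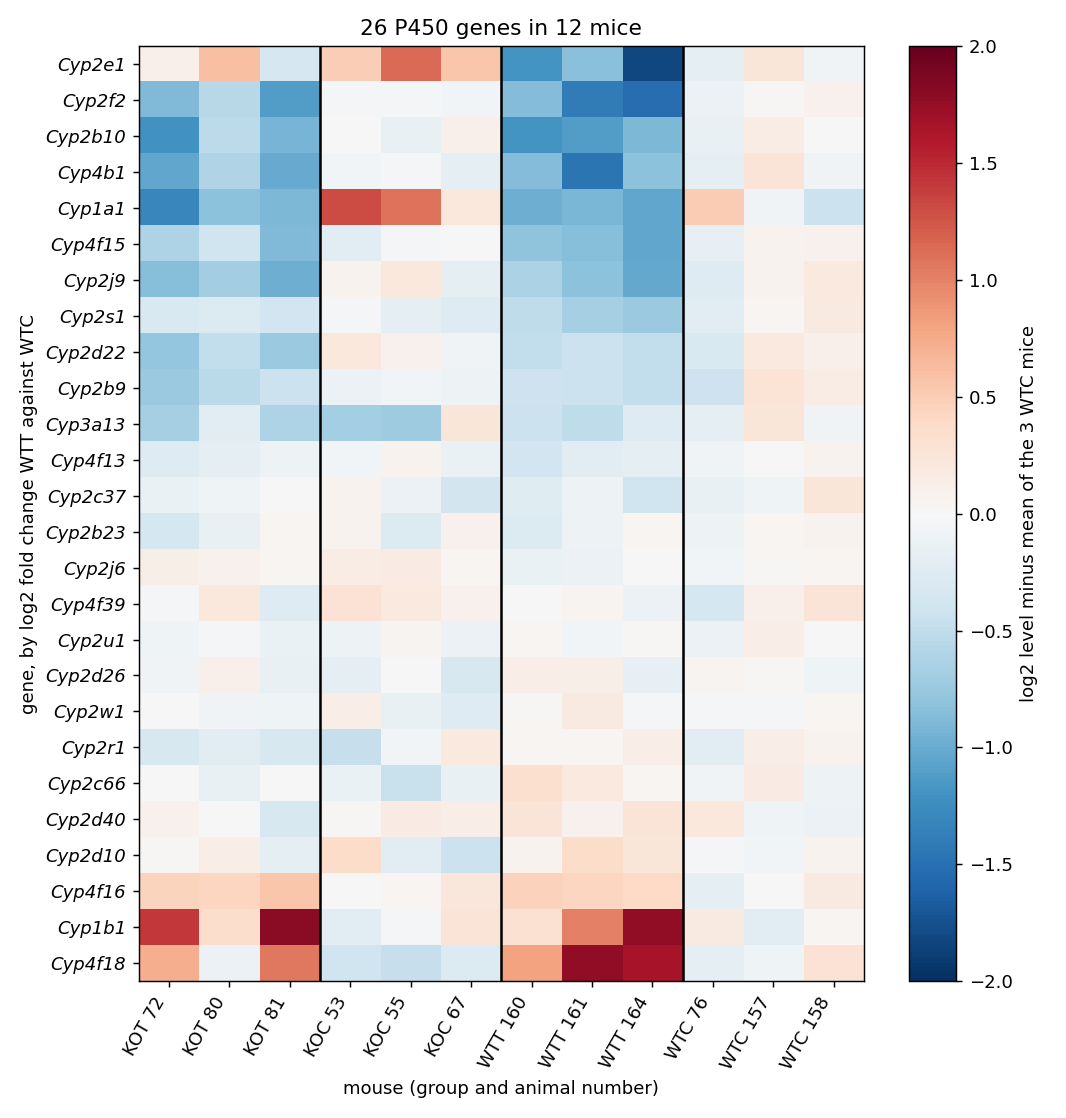
Difference of each mouse (columns, KOT to WTC) from the mean of the 3 WTC mice for the 26 P450 genes (rows), on the log2 scale; blue is lower and red higher. Cyp2f2, Cyp2b10 and Cyp4b1 are blue in all KOT and WTT mice, and Cyp1a1 is red in KOC, where its mean exceeded that of WTC by 0.87.

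The second question was whether the genotypes differed. With bleomycin (KOT against WTT) limma called 0 of the 26 genes, and over all clusters 0.0427% were higher and 0% lower. With PBS (KOC against WTC) it also called 0 of 26, and 0.0128% of clusters were higher and 0% lower. At an unadjusted p under 0.05 there were 7 of 26 with bleomycin (10.6% of all clusters) and 3 of 26 with PBS (9.82%). The test on medians called 2 with bleomycin (Cyp2e1 and Cyp4f18, 0.705% of clusters) and 1 with PBS (Cyp1a1, 1.79%). Cyp1a1 is in both of these counts with PBS but was selected through its PBS groups, so its part in them is a description. These comparisons follow the genotype labels, which Fosl1 separated after bleomycin but not with PBS. All Fra-1-/- mice but of the Fra-1+/+ mice only WTC 76 have animal numbers under 100, so whatever goes with these numbers cannot be told apart from genotype in the bleomycin groups.

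The widest genotype difference was in Cyp2e1. In every KOT mouse it lay above every WTT mouse, by 1.41 on average (95% interval 0.80 to 2.01, unadjusted p = 0.000301, adjusted p = 0.16), and in every KOC mouse above every WTC mouse, by 0.73 (0.12 to 1.33, adjusted p = 0.45). Summed adipocyte markers, with the ranges given above, overlapped between KOT and WTT and between KOC and WTC. Their means had the same direction as Cyp2e1, at 9.69 in KOT against 9.15 in WTT and 10.20 in KOC against 9.85 in WTC. The part of fat tissue in these genotype differences was not tested. KOC 55 was the highest of all 12 mice in Cyp2e1 and in each of the 5 adipocyte genes, and without it the Cyp2e1 difference with PBS was 0.52. Cyp1a1 was higher in KOC than in WTC by 0.87, with KOC 67 below WTC 76, a description again since KOC was the group that placed it highest. With a term for animal numbers under 100 the Cyp1a1 difference with PBS was 0.36. WTC 76 is the only WTC mouse with such a number. The value therefore sets KOC against that 1 mouse, the highest of the WTC mice in Cyp1a1 (6.94). Cyp4f18 differed by -0.86 between KOT and WTT (-1.50 to -0.22, adjusted p = 0.35), and KOT 81 lay above WTT 160. Without KOT 80 it was -0.52 and without WTT 160 it was -1.16. Cyp2s1 (0.31) and Cyp2f2 (0.41), of the airway genes, and Cyp2j6 (0.16) were higher in KOT than in WTT at an unadjusted p under 0.05, and Cyp2r1 (-0.36) and Cyp2d40 (-0.28) lower, with adjusted p between 0.355 and 0.441. The Cyp2f2 difference was 0.26 without KOT 80, and that of Cyp2d40 was -0.16 without KOT 81. With PBS the third gene was Cyp2c66 (-0.25), at -0.15 without KOC 55 and -0.16 without WTC 157. For the other genes the intervals leave room for differences: that of Cyp2b10 ran from -0.16 to 0.52 with bleomycin and from -0.36 to 0.32 with PBS.

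**Figure D4:**
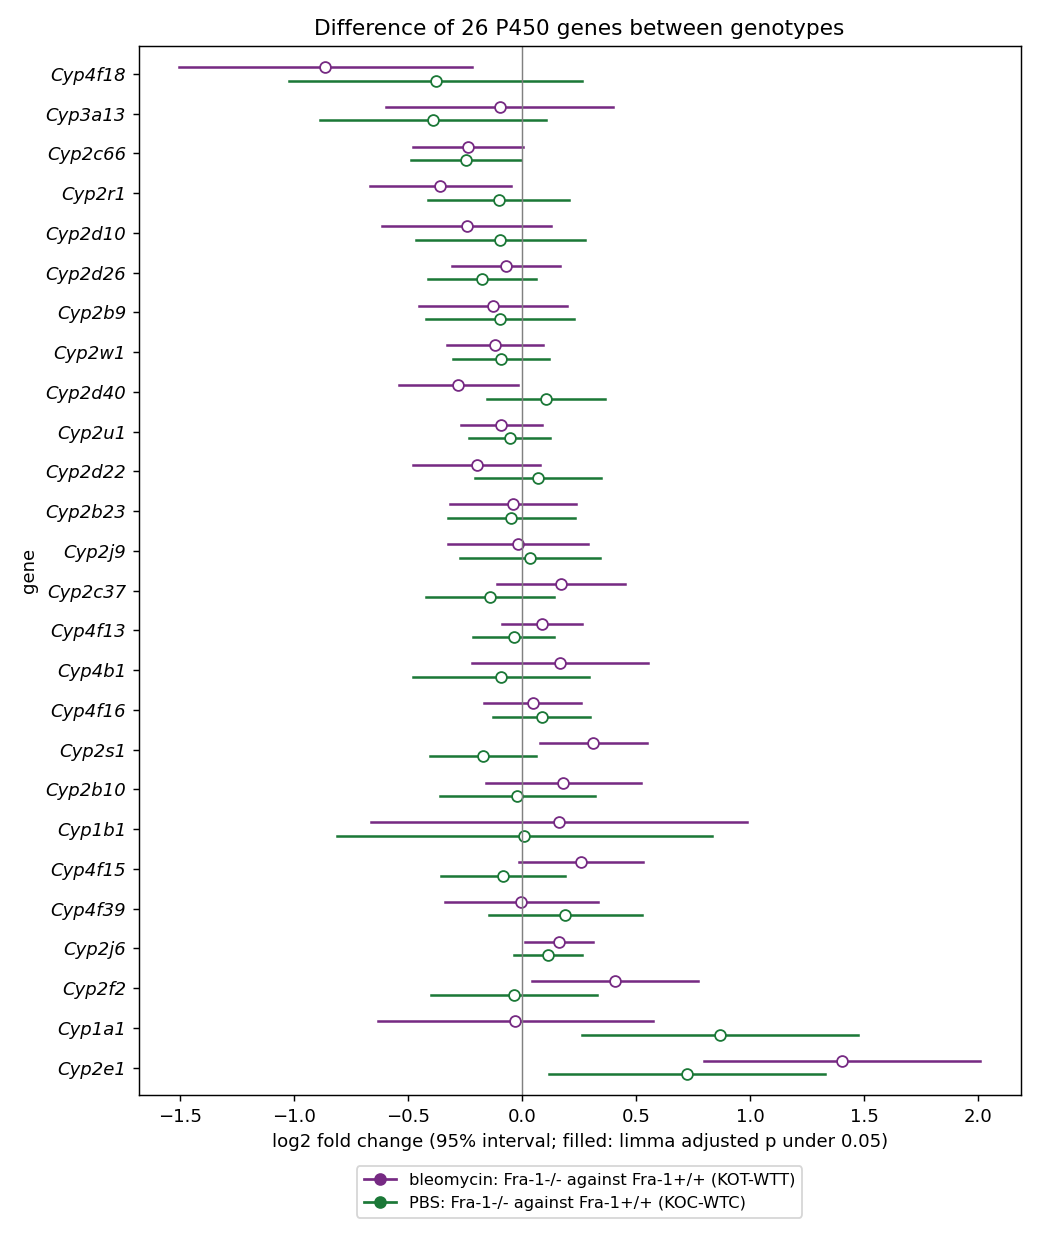
Log2 fold change of the 26 P450 genes between Fra-1-/- and Fra-1+/+ mice (x axis) with its 95% confidence interval, after bleomycin (purple, KOT minus WTT) above PBS (green, KOC minus WTC), n = 3 mice a group; a filled point would mark a gene that passed limma's test, and none is filled. Cyp2e1 lies at 1.41 after bleomycin and 0.73 with PBS.

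The responses of both genotypes were then set against each other by the interaction term, the response in Fra-1-/- minus that in Fra-1+/+ mice. Limma called 0 of the 26 genes and 0% of all clusters, with a smallest adjusted p among the 26 of 0.868. At an unadjusted p under 0.05 there were 3 of 26 (5.1% of all clusters): Cyp2s1 (0.48, 95% interval 0.15 to 0.81), Cyp1a1 (-0.90, set in part by its selection) and Cyp2d40 (-0.38, -0.75 to -0.02). The interval was -0.07 to 0.96 for Cyp2f2, -0.18 to 1.53 for Cyp2e1 and -1.39 to 0.42 for Cyp4f18. The 7 falls in Fra-1-/- mice and 10 in Fra-1+/+ mice, Cyp1a1 included, are not shown to differ, and 22 of the 26 genes had the same sign in both.

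Genes that work with these P450s were described from lists. Over all clusters 7.98% fell and 7.42% rose in Fra-1-/- mice, and 11.3% fell and 10.2% rose in Fra-1+/+ mice. Of 6 electron donors and membrane partners measured, 4 fell in Fra-1-/- and 3 in Fra-1+/+ mice, and P450 oxidoreductase itself was not measured by a single-gene cluster. Pgrmc1, a heme-binding partner of P450 enzymes, fell by 0.59 and 0.81, and Cyb5a, cytochrome b5, by 0.37 and 0.50, in Fra-1-/- and then Fra-1+/+ mice. Of 11 genes of heme synthesis and breakdown, 1 fell and 2 rose in Fra-1-/- mice and 2 fell and 2 rose in Fra-1+/+ mice. Hmox1, which degrades heme, rose by 1.24 in Fra-1-/- and 1.71 in Fra-1+/+ mice, and Fech, which inserts the iron, fell by 0.45 and 0.48. Alas1, the first enzyme of heme synthesis, fell by 0.70 in Fra-1+/+ mice. Of 10 nuclear receptors of xenobiotic and lipid sensing, 2 fell in each genotype, with Nr3c1, the glucocorticoid receptor, in both (-0.40 and -0.33).

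Most other enzymes of xenobiotic metabolism fell. Of 25 measured, 16 fell and 1 rose in Fra-1-/- mice, and 19 fell and 1 rose in Fra-1+/+ mice, with median log2 fold changes of -0.49 and -0.74. Aox3, an aldehyde oxidase, measured 8.26, 8.83 and 8.14 in KOT, 10.16, 10.50 and 10.14 in KOC, 8.72, 7.98 and 7.84 in WTT, and 10.18, 10.73 and 10.52 in WTC, without overlap. It fell by 1.86 in Fra-1-/- mice (adjusted p = 0.00093) and fell by 2.30 in Fra-1+/+ mice (adjusted p = 0.00020). Gstm1, a glutathione transferase, fell by 0.94 and 1.12, and the carboxylesterase Ces1f fell by 1.196 and 1.37. Gsto1, of the omega class of glutathione transferases, rose by 0.49 and 0.32. Of 19 P450 genes of families 5 and above, 1 fell and 2 rose in each genotype, to be read beside the same shares of all clusters. Cyp7b1, an oxysterol hydroxylase, measured 9.63, 9.14 and 9.75 in KOT, 7.28, 7.53 and 7.60 in KOC, 9.10, 8.76 and 9.32 in WTT, and 7.46, 6.81 and 7.11 in WTC. It rose by 2.04 in Fra-1-/- (adjusted p = 0.000341) and 1.93 in Fra-1+/+ mice (adjusted p = 0.000194), opposite in sign to Cyp39a1, another oxysterol hydroxylase, which fell by 0.89 and 1.07. Of 7 macrophage markers, 6 rose in Fra-1-/- mice (7.42% of all clusters), and 5 rose (10.2%) and 1 (Pparg) fell (11.3%) in Fra-1+/+ mice. Summed macrophage markers lay between 12.77 and 13.06 in KOT, 11.89 and 12.13 in KOC, 12.70 and 13.21 in WTT, and 11.88 and 12.10 in WTC. Their part in the Cyp7b1 values was not tested.

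**Figure D5:**
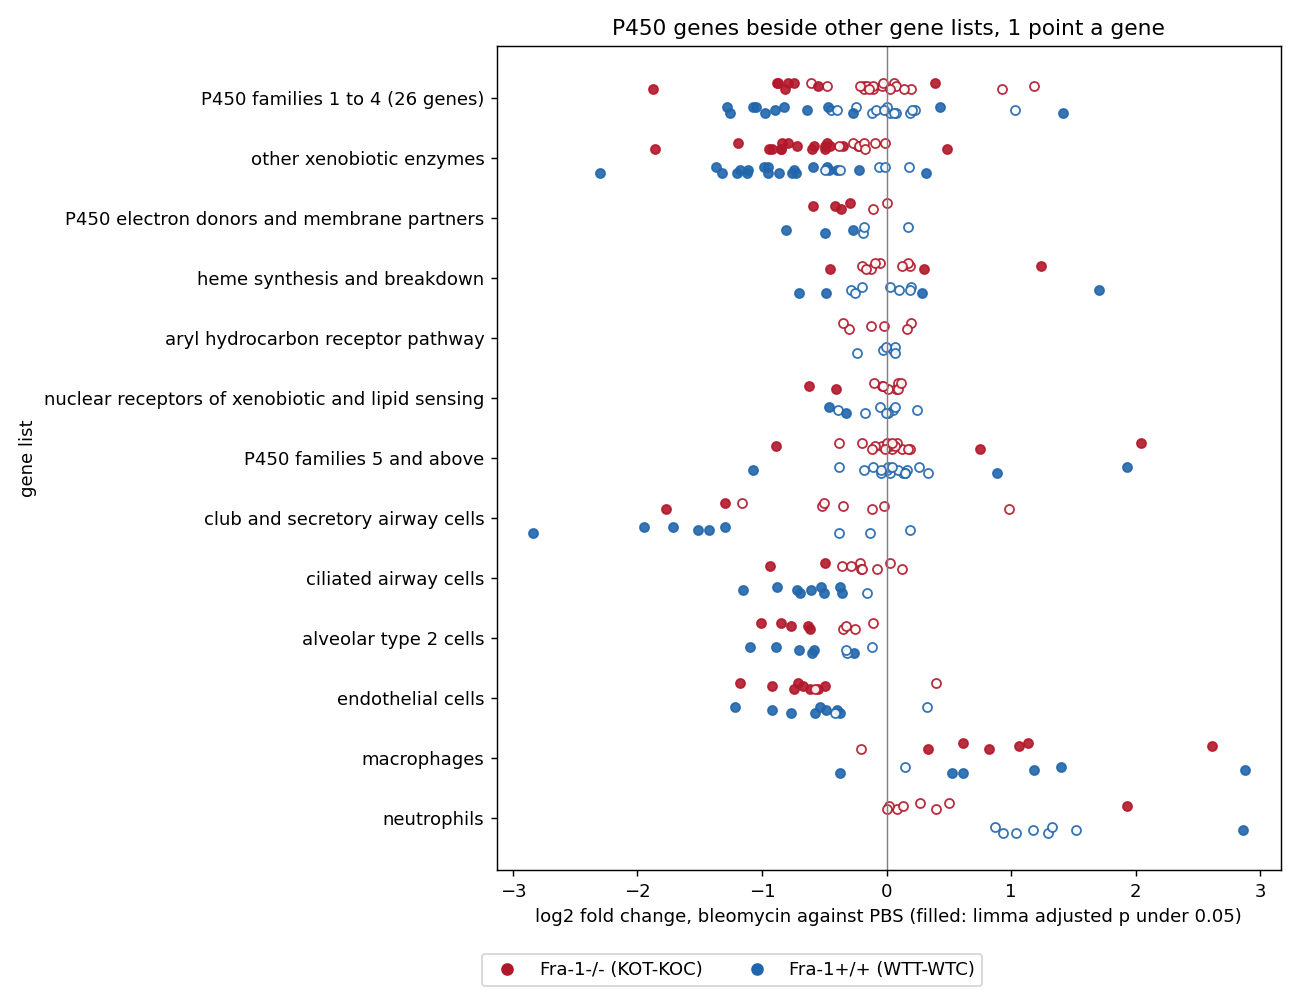
Log2 fold change with bleomycin (x axis) of the 26 P450 genes and of 12 lists of other genes, 1 point a gene, for Fra-1-/- mice (red) above Fra-1+/+ mice (blue); filled points passed limma's test. Aox3 is the leftmost of the xenobiotic enzymes at -1.86 (red) and -2.30 (blue), and Cyp7b1 the rightmost of families 5 and above at 2.04 (red) and 1.93 (blue).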

How the data were processed

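The values are log2 signals per transcript cluster, deposited by the authors, who used quantile normalization across the arrays and RMA in Affymetrix Power Tools (tools per the submitters' processing notes, versions not given). The genome build of the probes is not given in the sources used here. No further normalization was applied. Clusters were named by the platform's annotation table, and no P450 gene had more than 1 single-gene cluster. A mean for each group was fitted to all 12 arrays (8 residual degrees of freedom) with limma 3.58.1 in R 4.3.3, two-sided, with Benjamini-Hochberg adjustment over 23410 clusters. The local-pooled-error test (LPE) compares medians at an adjusted p under 0.01 and was rewritten in R with 100 bins and a spline of 10 degrees of freedom. It takes its variance from clusters of like level and leaves out a gene's own spread between mice. Both tests were run on simulated data with known changes and independent noise in each array, and only limma was held to set limits there. An exact two-sided test of 3 mice a side cannot go below p = 0.1, and p-values rest on variances pooled over clusters, and the number of arrays limits the precision (median SE of the 26 genes 0.13). Every mouse's values are given for the 14 genes called in any comparison or listed for their role. A summed marker level is the log2 of the sum of the list's linear signals. The genes, lists and alternatives were chosen with earlier results of these data known.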

Additional observations from a re-analysis of the deposited data

How the results depend on the processing

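In Fra-1-/- mice the 8 P450 genes called with bleomycin became 5 at an adjusted p under 0.01 and 13 with array weights, and lay between 5 and 10 with 1 array left out. The count in Fra-1+/+ mice stayed between 9 and 13 over 11 alternatives and over leaving out each array. The genotype counts of 0 became 1 (KOC against WTC) and 2 (KOT against WTT) under LPE and stayed at 0 in the other alternatives, as the interaction did in all of its own. A level of 7 instead of 6 left 17 of 26 genes, and a level of 6 in all 4 groups left 23. Of 957 recomputed values of named genes, 886 kept direction and side of the threshold, 36 lost the call and 33 gained one. A value called in neither setting counts as kept, and leaving out an array outside a comparison cannot move its fold change. The direction turned in 2 values, both Cyp3a13 in Fra-1-/- mice, at 0.065 under LPE and between -0.27 and 0.20 with 1 array left out. The causes were not tested. Averaging the clusters of a gene changed nothing, since each had 1. No paired analysis was possible because no animal number occurs in more than 1 group. Signal over background could not be judged, since detection p-values were not used here.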

Other observations

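Enzymes that make or clear eicosanoids outside families 1 to 4 were counted in the same way. Of 11 measured, 2 fell and 2 rose in Fra-1-/- mice and 1 fell and 2 rose in Fra-1+/+ mice by limma's test. Over all clusters 7.98% fell and 7.42% rose in Fra-1-/- mice, and 11.3% fell and 10.2% rose in Fra-1+/+ mice. Hpgd, which inactivates prostaglandins, fell by 0.66 in Fra-1-/- (adjusted p = 0.015) and by 1.07 in Fra-1+/+ mice (adjusted p = 0.0010). Ptges, a prostaglandin E synthase, rose by 1.12 (adjusted p = 0.021) and by 1.05 (adjusted p = 0.022) in the same order, and Tbxas1, thromboxane synthase, by 0.75 (adjusted p = 0.036) and 0.89 (adjusted p = 0.013). Alox12 fell by 0.85 in Fra-1-/- mice (adjusted p = 0.016) and differed by -0.47 in Fra-1+/+ mice (adjusted p = 0.13).

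Among the 39 P450 genes under the level of 6, limma called 1 in each genotype, both higher with bleomycin, where 7.42% of all clusters rose in Fra-1-/- and 10.2% in Fra-1+/+ mice. Cyp4a10, a fatty acid hydroxylase, averaged 5.55 ± 0.17 in KOT and 5.15 ± 0.11 in KOC (SD, n = 3 each, limma adjusted p = 0.029). Cyp2d11 averaged 5.22 ± 0.12 in WTT and 4.63 ± 0.15 in WTC (SD, n = 3 each, limma adjusted p = 0.033). The test on medians called neither (adjusted p = 0.187 for Cyp4a10 and 0.0224 for Cyp2d11). All 4 means lie under 6, where background could not be judged.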
